A study of Mus musculus with 6 samples.

Results

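Potassium channel genes were described in the adult female mouse hypothalamus after maternal blockade of NMDA receptors, the glutamate-gated calcium channels of excitatory synapses. Members were all genes whose symbol in the array annotation begins with Kcn, then letters and a digit, apart from Kcne2, Kcnj13 and Kcnj8, and each gene was read from its probeset with the highest mean signal over the 6 arrays. The rule gave 86 of the 17072 genes with a probeset of their own, of which 83 were protein-coding and 3 were antisense RNAs. No measured difference between groups entered the rule. Hypothalamic RNA of C57Bl/6J females aged 21 weeks was read on Affymetrix Mouse Gene 1.0 ST arrays, with 3 arrays for control mice (CON) and 3 for the CGP group. Dams of the CGP group received CGP 39551, an NMDA receptor antagonist, by mouth at 5 mg/kg through pregnancy until their litters were weaned, and the female offspring were studied. Each group was RNA pooled from 18 mice, and the labels do not say whether its 3 arrays hold separate pools. For the male mice of the same study the methods describe 1 pool a group put on arrays in triplicate. Each p-value is thus set against the spread between arrays alone. That spread may be technical, and variation between mice was not measured.

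Potassium channels let potassium leave or enter the cell along its electrochemical gradient. They set the resting potential of neurons and glia, end the action potential, and fix how fast and how long a neuron can fire. Voltage-gated, calcium-activated, inward rectifier and two-pore-domain channels each have pore subunits of their own, and accessory subunits alter how the pore opens and how much of it reaches the membrane. In the hypothalamus ATP-sensitive channels couple glucose to firing, G protein-gated inward rectifiers carry the inhibition by opioids and other transmitters, and M-type channels are targets of hormones and transmitters.

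All signals are log2 values, so that a difference of 1 is a doubling, and every difference is CGP minus CON. Array medians lay between 8.191 and 8.206, and arrays correlated at 0.9973 to 0.9983 within groups and at 0.9963 to 0.9978 between groups across probesets. The labels give hypothalamus as the source and as the tissue extracted, but their treatment text names adrenal glands, and the tissue was therefore checked with 15 marker genes of the hypothalamus. Of these 14 were measured, among them Hcrt, the orexin precursor, at 12.51 ± 0.050 in CON against 12.54 ± 0.037 in CGP (SD over 3 arrays). All 14 were above the floor of 6, but so were 18239 of the 18690 single-gene probesets. Passing the floor is thus only a weak check of tissue. By sign 4 of the 14 were higher and 10 lower in CGP, with 0 called and a median difference of -0.0633. The lowest was Cartpt, a peptide precursor of feeding neurons, at -0.24 (adjusted p = 0.06962). The 12 neuron markers averaged 12.12 to 12.14 on CON arrays and 12.11 to 12.13 on CGP arrays.

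The promoters of 3 members are shown because the results below turn on them: Kcnc2 and Kcnd2 had the lowest p among pore subunits, and Kcnmb4 shares its locus with the antisense RNA that had the lowest p of all members. Each is the 250 bases before an annotated RefSeq start in GRCm38.p6, 5′ to 3′ on the gene's strand, with CG dinucleotides in capitals. Kcnc2 lies at chr10:112269767-112270016 on the plus strand, Kcnd2 at chr6:21215096-21215345 on the plus strand and Kcnmb4 at chr10:116473524-116473773 on the minus strand.
Kcnc2: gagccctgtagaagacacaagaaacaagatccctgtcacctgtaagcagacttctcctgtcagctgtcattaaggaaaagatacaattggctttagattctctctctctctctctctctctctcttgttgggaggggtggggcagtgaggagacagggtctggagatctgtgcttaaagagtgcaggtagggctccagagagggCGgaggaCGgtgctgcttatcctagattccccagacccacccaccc
Kcnd2: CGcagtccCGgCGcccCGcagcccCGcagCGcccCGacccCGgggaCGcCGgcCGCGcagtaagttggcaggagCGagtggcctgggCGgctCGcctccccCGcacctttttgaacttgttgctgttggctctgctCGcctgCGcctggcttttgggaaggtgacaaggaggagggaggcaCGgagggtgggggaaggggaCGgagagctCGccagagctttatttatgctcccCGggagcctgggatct
Kcnmb4: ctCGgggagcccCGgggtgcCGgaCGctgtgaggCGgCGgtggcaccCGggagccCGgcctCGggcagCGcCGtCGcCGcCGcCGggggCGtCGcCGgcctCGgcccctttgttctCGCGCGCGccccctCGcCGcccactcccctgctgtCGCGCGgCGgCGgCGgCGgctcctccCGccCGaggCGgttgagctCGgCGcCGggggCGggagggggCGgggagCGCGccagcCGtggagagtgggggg

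The Kcnc2 window held 2 CG dinucleotides, the Kcnd2 window 22 and the Kcnmb4 window 43. The RefSeq span of Kcnc2 begins inside its window, at 112269898, and that of Kcnmb4 extends past its window to 116473859. The windows printed for Kcnc2 and Kcnmb4 are therefore not the most upstream of their genes. RefSeq gave starts for 64 members, 87 windows in all. Over the 250 bases before each start, which all counts of this paragraph use, their median was 8 CG dinucleotides against 6 over all 32851 windows. The cyclic AMP response element TGACGTCA, searched on both strands, stood in 0 of the 87 member windows and in 1.546% of all windows. Its shorter form TGACG, which the longer one contains, stood in 11.49% of the member windows and 17.77% of all, and TATAAA in 2.299% and 12.37%. None of these 3 motifs stood in the windows printed above. A match of letters is a description of the window, and its absence says nothing of a factor's binding.

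Of the 86 genes, 85 passed the filter on low signals, a mean of at least 6 over the 6 arrays. Kcnu1, the pore subunit of the sperm potassium channel, lay just under it at 5.94 ± 0.096 (CON) against 6.05 ± 0.028 (CGP, SD over 3 arrays) and was not tested. The tested genes nearest above the floor were Kcnk18, at a mean of 6.034, and Kcne1, at 6.039. Signals of different probesets depend on their probes and cannot be ranked against each other as amounts of RNA, so that the levels below describe how far each gene stood above the floor.

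The 25 voltage-gated pore genes lay between 6.91 for Kcna7, a channel known from muscle, and 10.78 for Kcnd2, with a median of 9.328. The 10 genes of silent subunits, which form no channel alone and join Kcnb subunits, lay between 6.728 for Kcnv2 and 8.873 for Kcnf1. The 8 calcium- or sodium-activated channel genes extended from Kcnu1 to Kcnma1, the large-conductance channel, at 10.27. Among the 12 inward rectifier genes the range was 6.688 for Kcnj15 to 11.37 for Kcnj10, the glial channel that takes up potassium, and among the 14 two-pore-domain genes it was 6.034 for Kcnk18 to 10.53 for Kcnk1. The 14 accessory genes covered 6.039 for Kcne1 to 11.96 for Kcnip3, a calcium-binding partner of Kcnd channels. Within the arrays of a group the median SD of the tested members was 0.0476, against 0.0571 over all tested probesets.

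**Figure D1:**
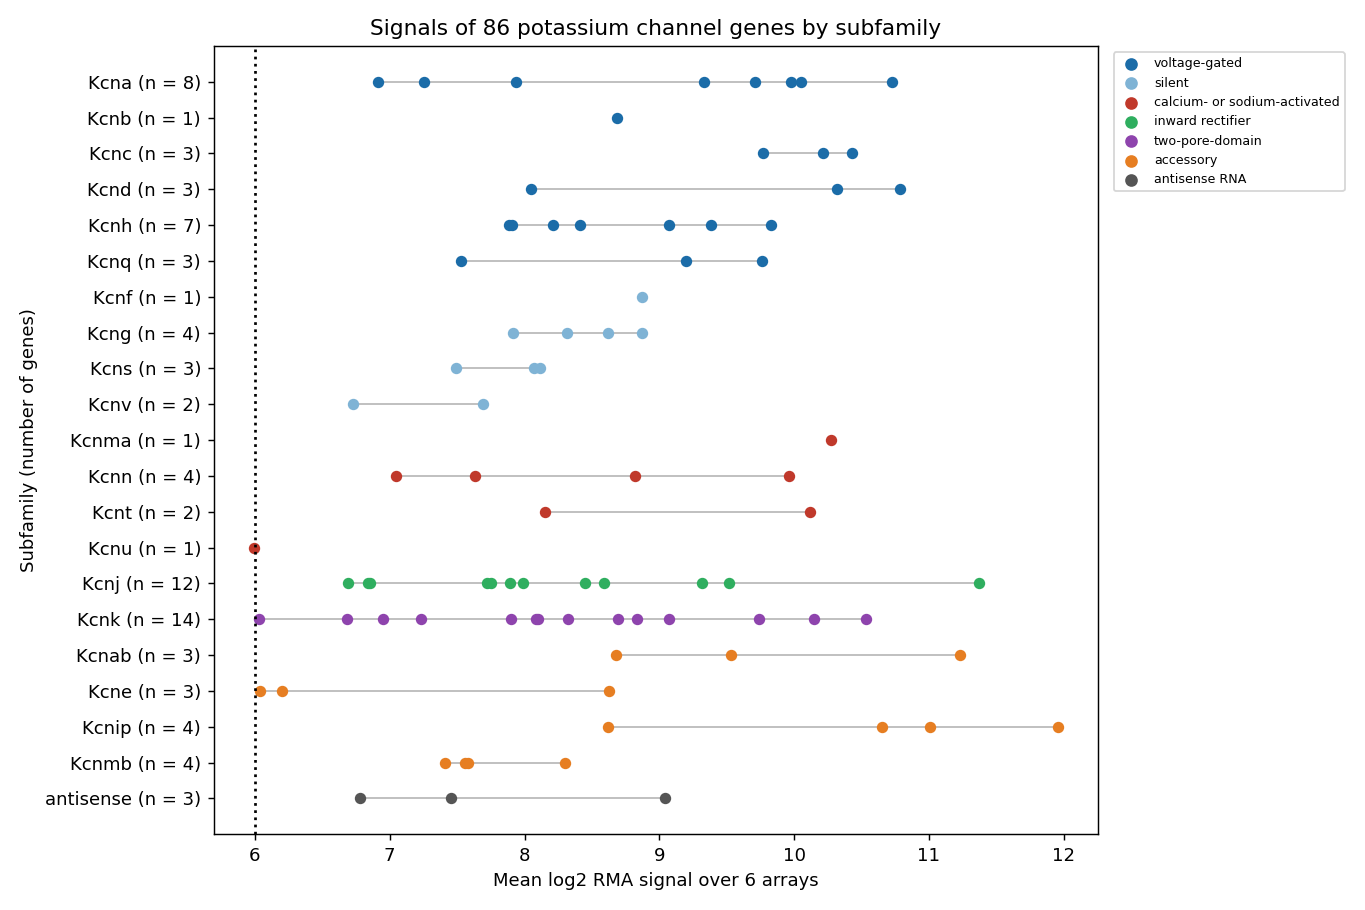
Mean log2 RMA signal over the 6 arrays (x axis) of each of the 86 potassium channel genes, 1 point per gene, by subfamily (y axis) and coloured by class, with a dotted line at the floor of 6. Kcnu1 lies at 5.99 beside the line, and Kcnip3 at 11.96 is the point farthest to the right.

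The arrays asked whether the 2 groups of adult daughters differed in potassium channel expression. No member passed limma's adjusted p of 0.05 in either direction. The count was 0 of 85 higher, where 0.154% of all 18239 tested probesets were called higher, and 0 of 85 lower, where 0.126% were called lower. Adjusted p-values of the members ran from 0.06599 for Kcnmb4os1 to 0.9985 for Kcnq5. An ordinary analysis of variance, without moderated variances, also called 0, whereas limma with an intensity trend and robust variances called 2, Kcnc2 and Kcnd2. With trend and robust variances 249 of all 18239 tested probesets were called, where the first fit called 51.

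An unadjusted p under 0.05 was found for 14 members. On leaving out each array this count ran from 7, without CON replicate 3, to 14, without CGP replicate 2. It was 17 with arrays centred on the median. Shares over all tested probesets are not given for these refits. With all arrays there were 8 higher, which is 9.412% of the members against 5.25% of all tested probesets, and 6 lower, which is 7.059% against 5.83%. The CGP arrays all lay above the CON arrays for 12 members, 14.12% against 7.59% of all, and all below for 11, 12.94% against 9.95% of all. By sign 51 members were above 0 and 34 below, so that 60.0% were above 0 where 47.9% of all tested probesets were. On leaving out each array the members above 0 ran from 43, without CGP replicate 2, to 52, without CGP replicate 1. They numbered 56 with arrays centred on the median. The median difference was 0.016 over the members and -0.0031 over all tested probesets. On single arrays the median deviation of the members ran from -0.0119 on CON replicate 2 to 0.0177 on CGP replicate 2, and the other arrays of both groups, between -0.0007 and 0.0055, overlapped.

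**Figure D2:**
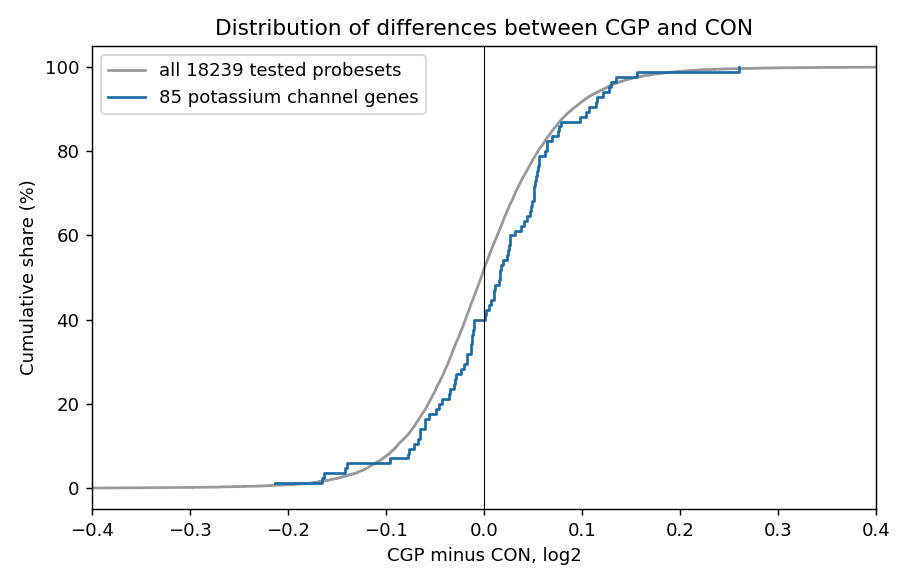
Cumulative share in percent (y axis) of differences, CGP minus CON in log2 (x axis, drawn from -0.4 to 0.4), for the 85 tested potassium channel genes and for all 18239 tested probesets. The far ends of the member curve are Kcng4 at -0.21 and Kcnmb4os1 at 0.26.

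The data also bound how large a difference could be. Of the 85 members, 70 differed by less than 0.1, and the median size of a difference was 0.0492, against 0.0446 over all tested probesets. A difference of at least 0.1 was seen for 15 members, 17.65% against 15.82% of all. Every member's 95% interval lay within 0.4854 either way, which is the 1.4-fold threshold of the study's methods. The same share over all tested probesets is not given here, so this is not read as particular to potassium channels. The outermost bounds were -0.35, for Kcng4, and 0.36, for Kcnmb4os1. These intervals cover the spread between arrays only.

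**Figure D3:**
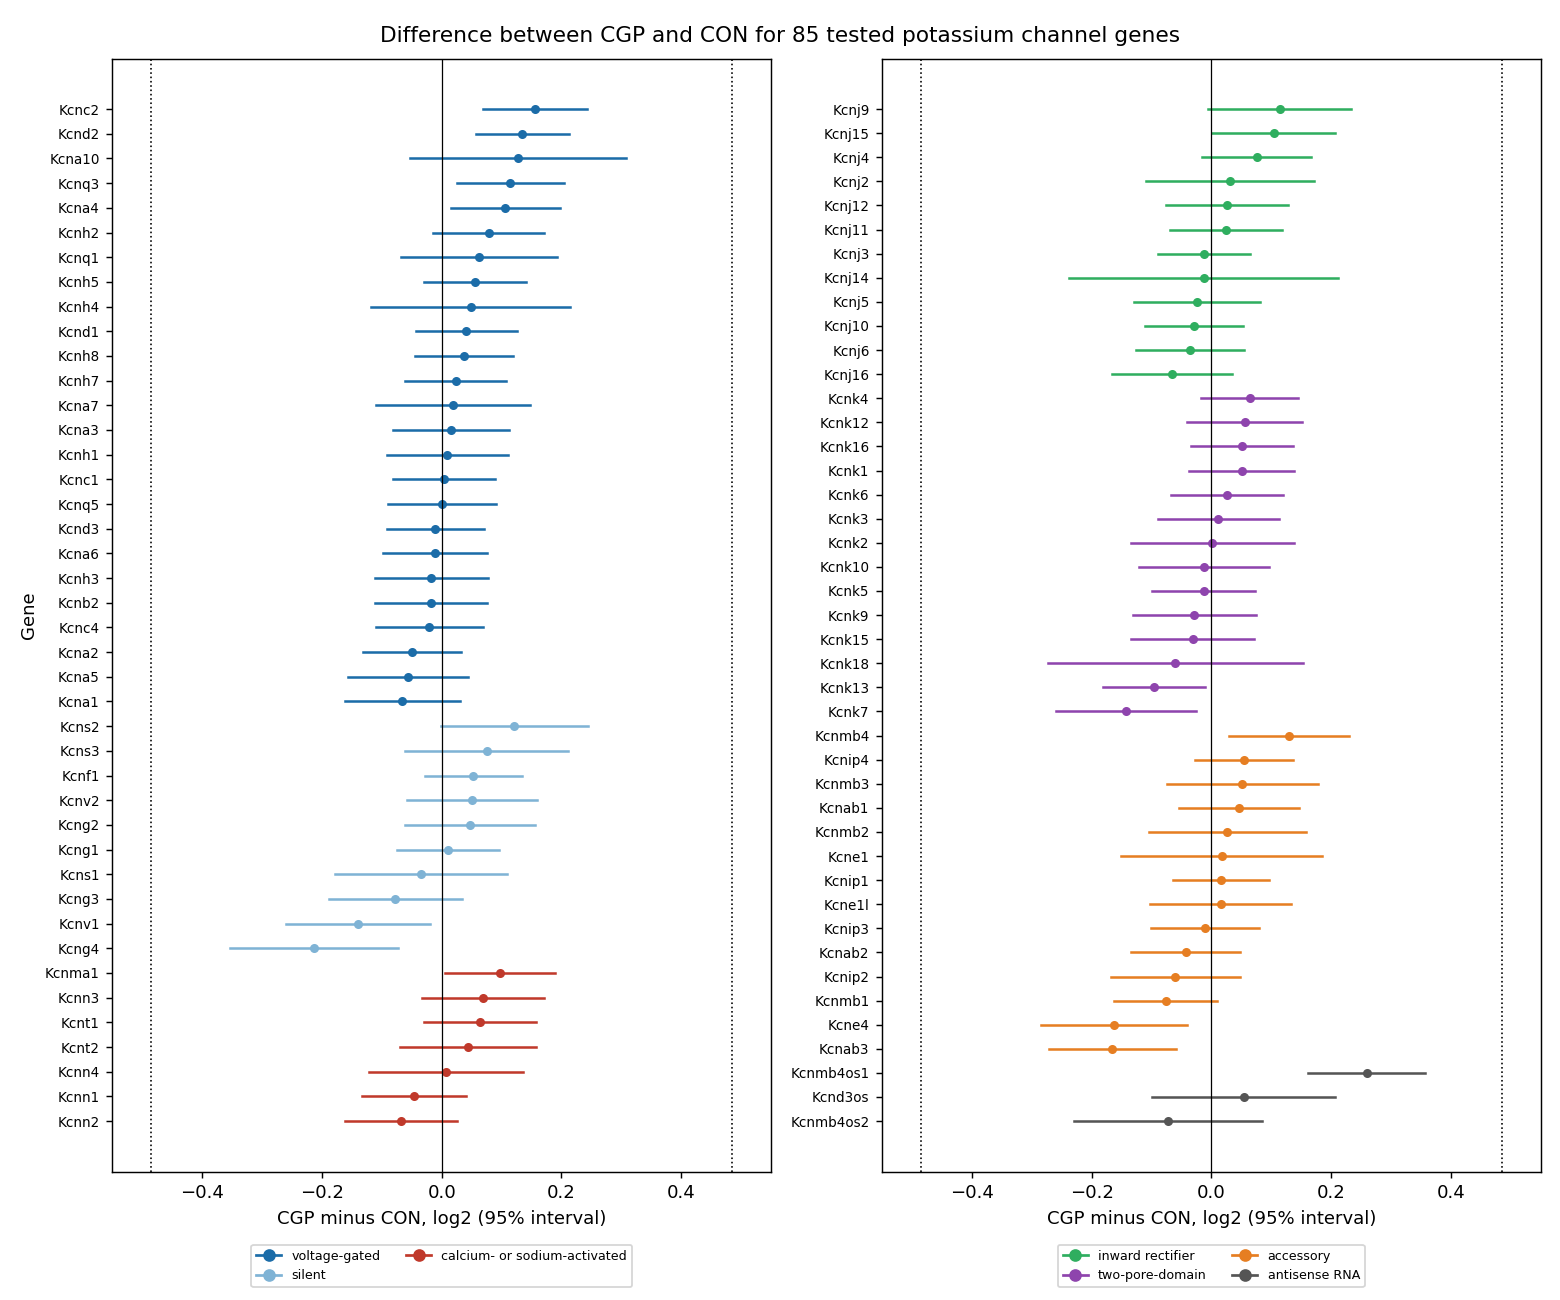
Difference between CGP and CON in log2 (x axis) with its 95% interval from limma for each of the 85 tested genes (y axis), coloured by class, with dotted lines at 1.4-fold either way. No interval reaches a dotted line, and that of Kcnmb4os1 extends to 0.36.

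Among the 25 voltage-gated pore genes 0 were called, 17 were above 0 and 8 below, and the median difference was 0.020. At an unadjusted p under 0.05 there were 4 of the 25, all with the higher signal in CGP. Of all tested probesets 5.25% were higher and 5.83% lower at that p. Kcnc2, a fast delayed rectifier of neurons that fire at high rates, read 10.35, 10.36 and 10.34 on the CON arrays and 10.48, 10.56 and 10.48 on the CGP arrays. The CGP arrays all lay above the CON arrays, which were nearly level with each other. The difference was 0.16 (SE 0.038, adjusted p = 0.2302), or 1.11-fold.

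Kcnd2, which carries the A-type current that delays firing and limits spikes in dendrites, read 10.73, 10.69 and 10.72 in CON and 10.84, 10.86 and 10.85 in CGP. The arrays of the groups lay apart, with SDs of 0.019 in CON and 0.011 in CGP. The difference was 0.13 (SE 0.034, adjusted p = 0.2448). Kcnd3, which carries the same kind of current, read 10.32 ± 0.014 (CON) against 10.31 ± 0.030 (CGP, SD over 3 arrays), a difference of -0.01 (adjusted p = 0.9376).

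Kcnq3, a subunit of the M-type channel that restrains repetitive firing, read 9.67, 9.75 and 9.69 in CON and 9.86, 9.80 and 9.79 in CGP. The lowest CGP array lay above the highest CON array, and the difference was 0.12 (SE 0.039, adjusted p = 0.3684). Kcnq5, another M-type subunit, differed by 0.0004 (adjusted p = 0.9985), from 9.20 ± 0.007 to 9.20 ± 0.054 (SD, n = 3 arrays each). Kcna4, an inactivating channel of axons, read 9.28, 9.29 and 9.26 in CON and 9.44, 9.33 and 9.38 in CGP. Again no CGP array lay as low as a CON array, with a difference of 0.11 (adjusted p = 0.4091).

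A negative difference was seen for Kcna1 and Kcna2, channels of axons like Kcna4. Kcna1, which keeps axons from firing repeatedly, read 10.01 ± 0.043 in CON against 9.94 ± 0.048 in CGP (SD over 3 arrays; adjusted p = 0.6035). Kcna2, its common partner in one channel, read 10.75 ± 0.037 and 10.70 ± 0.008 (adjusted p = 0.645), and its second probeset, at a mean of 8.74, differed by 0.0046. Kcna1 and Kcna2 are 2 of the 11 members whose CGP arrays all lay below the CON arrays, though by narrow gaps. Of the 8 Kcna genes 4 were above 0 and 4 below, with a median of 0.0022. Kcnc1, close in function to Kcnc2, differed by 0.0047, Kcnh2, the ERG channel, by 0.08 (adjusted p = 0.5195), and Kcnb2, a delayed rectifier, by -0.02. The Kcnh2 arrays lay apart, at 9.82, 9.82 and 9.72 in CON and 9.88, 9.86 and 9.86 in CGP. Of the 7 Kcnh genes 6 were above 0, from -0.02 for Kcnh3 to the 0.08 of Kcnh2. Kcna10, a little-studied member of the Kcna subfamily, differed by 0.13 with the wide interval of -0.05 to 0.31 (adjusted p = 0.5894), and by 0.05 without CGP replicate 2 and 0.06 without CON replicate 2.

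**Figure D4:**
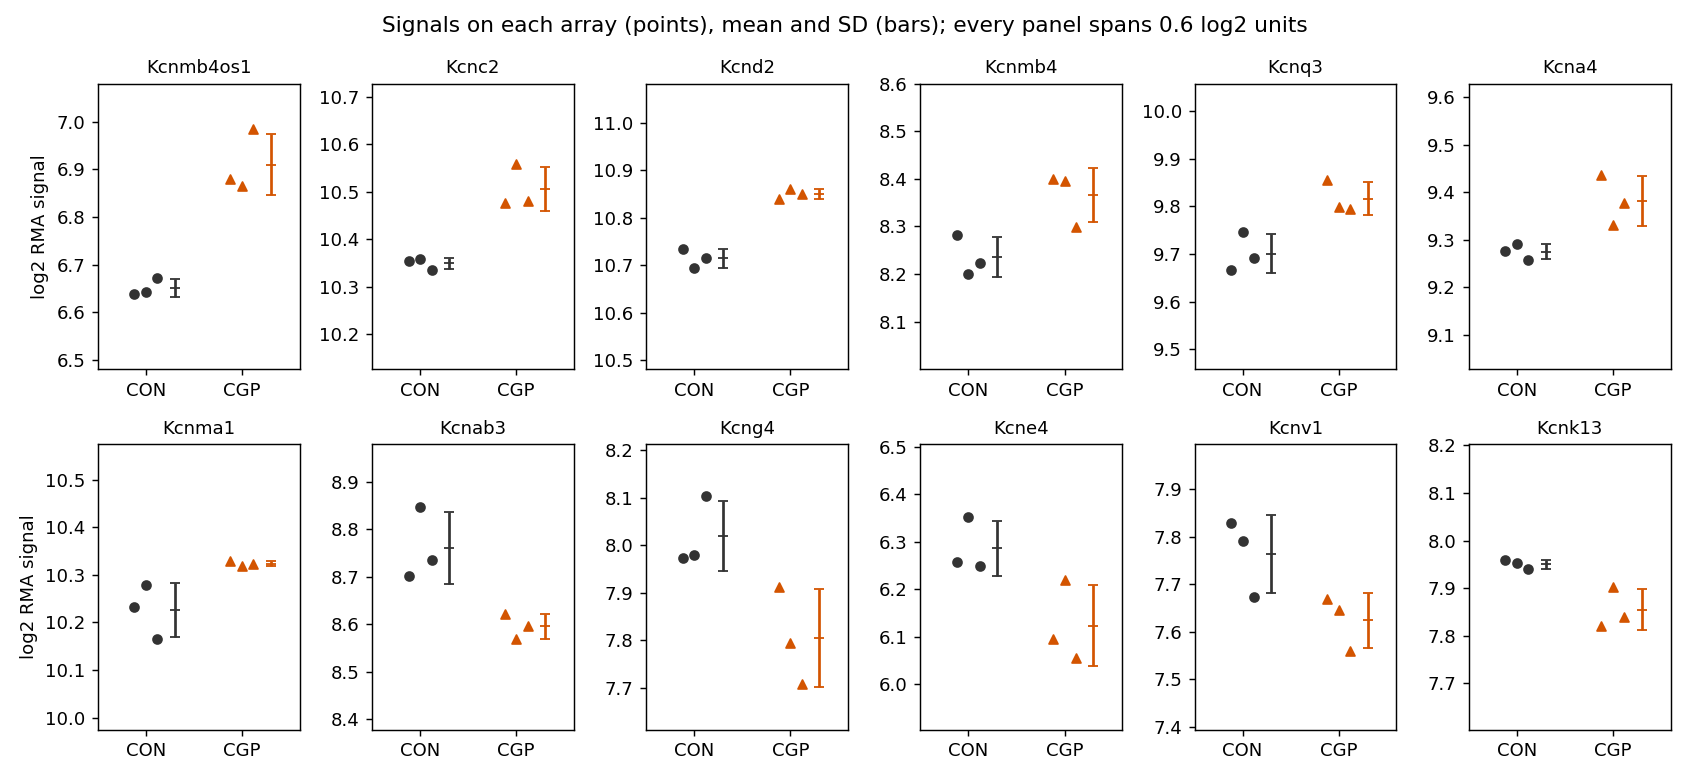
Log2 RMA signal on each array (points, y axis) with mean and SD (bars) in CON and CGP (x axis) for 12 chosen members. Each panel spans 0.6 log2 units on its own scale. They were picked from the members whose arrays do not overlap between groups. Those were 12 higher (14.12% against 7.59% of all tested probesets) and 11 lower (12.94% against 9.95%). Kcnc2, Kcnd2 and Kcnmb4os1 show tight CON arrays below the CGP arrays, and Kcng4 and Kcnab3 show CGP arrays below.

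Of the 10 silent subunit genes 0 were called, with 6 above 0 and 4 below. Kcng4 had the lowest difference of all members and read 7.97, 7.98 and 8.10 in CON and 7.91, 7.80 and 7.71 in CGP. The arrays did not overlap, but CGP replicate 1 lay close to the lower CON arrays, and the difference was -0.21 (SE 0.061, adjusted p = 0.2936). Kcnv1 read 7.83, 7.79 and 7.67 in CON and 7.67, 7.65 and 7.56 in CGP, where the lowest CON array and the highest CGP array nearly met, with a difference of -0.14 (adjusted p = 0.4096). Kcns2 read 8.05, 7.97 and 8.02 in CON and 8.23, 8.04 and 8.14 in CGP, which overlapped, with a difference of 0.12 (adjusted p = 0.4554), or 0.07 without CGP replicate 1. Kcnf1 read 8.82, 8.86 and 8.86 in CON and 8.92, 8.90 and 8.87 in CGP, apart but with a difference of 0.05 (adjusted p = 0.6181). The remaining silent subunits differed by -0.08 for Kcng3 to 0.08 for Kcns3.

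Calcium and sodium that enter during firing open the next class, of which 7 genes were tested, 0 were called, 5 were above 0 and 2 below. Kcnma1 encodes the pore of the large-conductance calcium- and voltage-activated (BK) channel, which shortens the action potential. It read 10.23, 10.28 and 10.17 in CON and 10.33, 10.32 and 10.32 in CGP, so that the CGP arrays were level and lay above all CON arrays, with a difference of 0.10 (SE 0.040, adjusted p = 0.4275). Kcnn2 and Kcnn3, small-conductance channels of the afterhyperpolarization, differed by -0.07 (adjusted p = 0.5746) and 0.07 (adjusted p = 0.608). Kcnn2 read 8.87, 8.85 and 8.85 in CON and 8.81, 8.83 and 8.72 in CGP, all below the CON arrays, whereas the Kcnn3 arrays overlapped between the groups. Kcnt1, a sodium-activated channel, read 10.08 ± 0.060 in CON against 10.15 ± 0.012 in CGP (SD over 3 arrays; adjusted p = 0.6033).

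Kcnmb4 encodes the neuronal accessory subunit of the BK channel, which slows its opening. It read 8.28, 8.20 and 8.22 in CON and 8.40, 8.40 and 8.30 in CGP. The groups lay apart by a narrow gap between CON replicate 1 and CGP replicate 3, and the difference was 0.13 (SE 0.043, adjusted p = 0.3586). The span of the antisense RNA Kcnmb4os1 lies within that of Kcnmb4 on chromosome 10 in RefSeq. Kcnmb4os1 read 6.64, 6.64 and 6.67 in CON and 6.88, 6.87 and 6.98 in CGP. Its CON arrays were nearly equal and all lay below the CGP arrays, and the difference of 0.26 (SE 0.042, adjusted p = 0.06599), or 1.20-fold, was the highest of all members at a signal near the floor. Kcnmb4os2, whose span overlaps that of Kcnmb4, read 7.58, 7.48 and 7.42 in CON and 7.29, 7.55 and 7.42 in CGP. These arrays overlapped, with a difference of -0.07 (adjusted p = 0.7353). Kcnd3os, whose span overlaps that of Kcnd3 on chromosome 3, differed by 0.05 (adjusted p = 0.8006). The positions of the probes within these overlapping genes were not analysed here.

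The 12 inward rectifier genes were split, with 6 above 0, 6 below and 0 called. The G protein-gated channels Kcnj3, Kcnj6 and Kcnj9, which open when inhibitory receptors are active, differed by -0.01 (adjusted p = 0.9232), -0.04 (adjusted p = 0.7775) and 0.11 (adjusted p = 0.468). Kcnj9 had the largest difference of the class and read 8.37, 8.44 and 8.37 in CON and 8.61, 8.43 and 8.48 in CGP, with CGP replicate 2 inside the CON range. Without CGP replicate 1 its difference was 0.06, below that of Kcnj15 at 0.08. Kcnj15 read 6.69, 6.63 and 6.58 in CON and 6.80, 6.70 and 6.73 in CGP, close to each other at the edge of the groups, with a difference of 0.10 (adjusted p = 0.4468). Kcnj11, the pore of the ATP-sensitive channel of glucose-sensing neurons, read 8.61, 8.56 and 8.56 in CON and 8.57, 8.66 and 8.57 in CGP. Its groups overlapped, with a difference of 0.02 (adjusted p = 0.8633). Kcnj16, which pairs with Kcnj10 in glia, differed by -0.07 (adjusted p = 0.6204), the lowest of the class. Kcnj10 read 11.39 ± 0.036 in CON against 11.36 ± 0.001 in CGP (SD over 3 arrays, adjusted p = 0.7963). Of the 12 astrocyte markers, which include Kcnj10, 2 were above 0, 10 below and 0 called, with a median of -0.0485. The 11 tested oligodendrocyte markers had 2 above 0, 9 below and 0 called, with a median of -0.0674. Of all tested probesets 47.9% were above 0. The part of these markers in the Kcnj10 and Kcnj16 values was not tested.

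Two-pore-domain channels carry the background current that holds the resting potential, and of their 14 genes 7 were above 0, 7 below and 0 called. Kcnk7 read 7.005, 6.97 and 7.08 in CON and 6.80, 6.96 and 6.87 in CGP, with CGP replicate 2 just under the CON arrays and a difference of -0.14 (adjusted p = 0.3955). Kcnk13, which carries the resting current of microglia, read 7.96, 7.95 and 7.94 in CON and 7.82, 7.90 and 7.84 in CGP. All CGP arrays lay below the level CON arrays, with a difference of -0.10 (adjusted p = 0.4144). The 11 tested microglia markers averaged 8.777 to 8.787 on CON arrays and 8.715 to 8.752 on CGP arrays, with 3 above 0, 8 below and 0 called, and their part in the Kcnk13 value was not tested. Kcnk4, a mechanosensitive channel, read 8.64, 8.67 and 8.68 in CON and 8.75, 8.73 and 8.70 in CGP, apart in the other direction by 0.06 (adjusted p = 0.5469). The acid-sensitive channels Kcnk3 and Kcnk9 differed by 0.01 (adjusted p = 0.9474) and -0.03 (adjusted p = 0.853). Kcnk2, opened by stretch and lipids, differed by 0.0015 (adjusted p = 0.9957), and Kcnk1, a weakly rectifying background channel, by 0.05 (adjusted p = 0.6559).

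Of the 14 accessory genes 8 were above 0, 6 below and 0 called. Kcnab3, a cytoplasmic beta subunit of Kcna channels, read 8.70, 8.85 and 8.73 in CON and 8.62, 8.57 and 8.60 in CGP. Every CGP array lay below every CON array, and the difference was -0.17 (SE 0.046, adjusted p = 0.2873). Kcnab1, of the same family, had the other sign, 0.05 (adjusted p = 0.7342). Kcne4, a single-span subunit that inhibits several voltage-gated channels, read 6.26, 6.35 and 6.25 in CON and 6.09, 6.22 and 6.06 in CGP. The groups did not overlap, and the difference was -0.16 (SE 0.053, adjusted p = 0.3456) at a signal near the floor. Kcnmb1, the smooth muscle BK subunit, read 7.58, 7.64 and 7.58 in CON and 7.54, 7.55 and 7.49 in CGP, below the CON arrays by a difference of -0.08 (adjusted p = 0.5095). Of the 13 endothelial and mural markers 1 was above 0 and 12 below, with a median of -0.0141. The 1 called lower was Acta2, a smooth muscle gene, at -0.35 (adjusted p = 0.02491), where 0.126% of all tested probesets were called lower. Their part in the Kcnmb1 value was not tested. The calcium-binding partners of Kcnd channels, Kcnip1 and Kcnip2, differed by 0.02 (adjusted p = 0.9007) and -0.06 (adjusted p = 0.6729). Kcnip4, of the same family, read 10.97, 10.99 and 10.98 in CON and 11.07, 11.03 and 11.00 in CGP. The CGP arrays were the higher, by 0.05 (adjusted p = 0.6152). Of the 3 Kcnd and 4 Kcnip genes, Kcnd2 and Kcnip4 had groups that did not overlap and the others did overlap.

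Genes that work with these channels but carry other symbols were read from a list of 20 partners, all 20 tested. Of these 9 were above 0, 11 below and 0 called, with a median of -0.0020. Abcc8, the sulfonylurea receptor that completes the ATP-sensitive channel with Kcnj11, read 8.52, 8.52 and 8.53 in CON and 8.65, 8.62 and 8.60 in CGP. The groups lay apart, with a difference of 0.10 (adjusted p = 0.3838). Lrrc55, a gamma subunit of the BK channel, read 9.45, 9.39 and 9.37 in CON and 9.55, 9.56 and 9.51 in CGP, also apart. Its difference was 0.14 (adjusted p = 0.287), and the gene is also among the habenula markers described below. Dpp6, which brings Kcnd channels to the membrane, differed by -0.0085 (adjusted p = 0.9501). A list of 20 genes of potassium transport and pacemaker channels had 15 tested, with 9 above 0, 6 below, 0 called and a median of 0.016.

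Markers of neighbouring tissues were read on the same arrays. Over all 18239 tested probesets 0.154% were called higher, 0.126% were called lower and 47.9% lay above 0. In bulk tissue fewer cells of a type cannot be told apart from less RNA per cell. The 14 tested thalamus markers averaged 10.11 to 10.13 on CON arrays and 10.29 to 10.31 on CGP arrays, with a median difference of 0.19, 13 of 14 above 0 and 2 called higher. The 12 habenula markers averaged 8.52 to 8.588 in CON and 8.695 to 8.75 in CGP, with 11 above 0 and 0 called. The 9 anterior pituitary markers averaged 9.586 to 9.644 in CON and 9.96 to 9.996 in CGP, with 8 above 0 and 3 called higher, and the 11 choroid plexus markers 7.901 to 7.923 and 8.139 to 8.2, with all 11 above 0 and 2 called higher. The 12 midbrain dopamine neuron markers averaged 9.546 to 9.575 in CON and 9.375 to 9.414 in CGP, with 11 below 0 and 1 called lower. The 16 meninges markers averaged 8.633 to 8.651 and 8.387 to 8.44, with 13 below 0 and 6 called lower. The 10 striatal markers had a median of 0.052 and the 10 of cortex and hippocampus 0.0352, with 0 called in either. No measured marker of these lists lay under the floor. Their part in the values of Kcnc2, Kcnd2, Kcng4 and the other members was not tested.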

How the data were processed

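The authors deposited log2 signals of 28471 probesets on 6 arrays, made with RMA in Partek per their processing notes; the labels give no version, and the sources used here do not give the genome build. Probesets were named from the platform annotation, which gave 1 gene for 18690, several for 1163 and did not list 8618. Single-gene probesets with a mean of at least 6 over the 6 arrays, 18239 for 16663 genes, were tested, and 451 were left out. All 86 members matched RefSeq by Entrez identifier.

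The groups were compared without covariates by lmFit and eBayes of limma 3.58.1 in R 4.3.3, using the 6 arrays. Adjusted p-values are Benjamini-Hochberg values across the tested probesets. The study's methods name an analysis of variance with a false discovery rate and a 1.4-fold change. With 3 arrays a group, a two-sided exact permutation test cannot go below 0.1. The steps were tested on simulated data, and no array pair held identical values. Classes and subfamilies follow the gene symbols.

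The genes named were the 15 with the smallest p, the largest difference in each subfamily and listed channels of hypothalamic cells. Others are named at the end of a range or where a result turns on them, chosen after their values were seen. The members and lists were chosen with earlier results of these data known. Alternatives were the filter, the probesets tested, a replicate block, array weights, variance moderation, centring, averaging of probesets, the fold threshold and leaving out each array.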

Additional observations from a re-analysis of the deposited data

How the results depend on the processing

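No member was called in 14 of 15 refits. With trend and robust variances 2 were called higher, Kcnc2 (adjusted p = 0.02046) and Kcnd2 (adjusted p = 0.02194), while the probesets called in all went from 51 to 249. The number of probesets called was 77 with array weights, 81 with the floor at 7, 6 with the ordinary analysis of variance, 4 with all probesets and 6 to 10 on leaving out 1 array. The adjusted p of Kcnmb4os1 ran from 0.05368 with array weights to 0.2768 without CON replicate 1. The 1.4-fold threshold left 0 called. The median difference of the members was 0.028 with arrays centred on the median. Centring moves the difference of every probeset by the same amount, as for Kcnc2 from 0.156 to 0.1682. The 0.028 is thus not a change of the members against other genes. On leaving out each array the median was 0.0057 to 0.0195, the lowest without CON replicate 2. The median deviation of the members was lowest on that array, at -0.0119, and why it was low there was not tested.

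Same-numbered arrays deviated with correlations of 0.07761, -0.1786 and 0.1127, so the numbers were not taken as pairs. With the replicate block 0 members were called, the lowest adjusted p was 0.1914, the median stayed at 0.0157, and 6 probesets were called in all.

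Of 39 named members 31 had 1 sign under every refit and 8, none of them called, had the other sign in some. Part of the 39 were named for a small p or a large difference on these same arrays, which favours a steady sign. The count thus does not speak for all members. With array weights Kcnc1 differed by -0.0009, Kcnk2 by -0.0006 and Kcnq5 by -0.0073. With centring Kcnd3 differed by 0.0019 and Kcnj3 by 0.0001. On leaving out each array in turn the differences ran from -0.0132 to 0.0202 for Kcnc1, -0.0195 to 0.0071 for Kcnd3, -0.0055 to 0.0423 for Kcnj11, -0.0445 to 0.0618 for Kcnk2, -0.0275 to 0.0317 for Kcnk3, -0.0646 to 0.0035 for Kcnk9 and -0.0261 to 0.0279 for Kcnq5. Signal near the floor limits Kcnmb4os1 and Kcne4, and 3 arrays a group limit the precision of all values.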

Other observations

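The 3 channel genes that the rule leaves out were measured on the same arrays. Kcne2, an accessory subunit abundant in choroid plexus epithelium, read 6.84 ± 0.046 on the 3 CON arrays and 7.08 ± 0.088 on the 3 CGP arrays (SD). The arrays lay apart, with a difference of 0.24 (SE 0.052, adjusted p = 0.1771 from limma). Kcnj13, another channel of that epithelium, read 8.93 ± 0.021 in CON against 8.94 ± 0.085 in CGP (SD over 3 arrays), a difference of 0.01 (adjusted p = 0.9503 from limma). Kcnj8, the pore of the ATP-sensitive channel of mural cells, differed by 0.0078 (adjusted p = 0.9862 from limma). Of the 20 activity-induced genes, early response genes that neurons switch on when they fire, 19 were above 0 and 7 were called higher by limma. Among all tested probesets 47.9% were above 0 and 0.154% were called higher. The median difference of the 20 genes was 0.15. Their mean level was 8.432 to 8.455 on CON arrays and 8.612 to 8.624 on CGP arrays. No relation between these genes and the channel genes was tested.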
